A study of Mus musculus and Rattus norvegicus with 14 samples.

Results

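Genes of the cardiac Z-disc stretch machinery and of calcineurin signalling were followed through mouse hearts in 4 groups of 3 libraries. The 8 genes, taken by gene name from the 54532 genes of the deposited mouse table, were Tcap, Csrp3, Ankrd1, Ankrd23, Xirp1, Xirp2, Rcan1 and Abra. Each name matched 1 row, and all 8 were among the 13000 genes tested. The study set out to describe how LQ-40 and SQ-3, code names of a pair of compounds considered structurally similar, act on myocardial fibrosis. The groups are labelled LQ-40, SQ-3, Model and Sham, and every library is labelled as heart. The labels used here give no strain, age, dose, treatment time, model procedure or hour of collection, and whether hearts of the LQ-40 and SQ-3 groups also went through that procedure is not stated. Separate animals are not named for the replicates either, and p-values therefore measure only the spread between these libraries, which may be technical.

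The Z-disc anchors actin filaments and the ends of titin, the giant elastic protein of the sarcomere, and it is a site where heart muscle cells sense stretch. Telethonin (Tcap) caps the amino-terminal ends of titin in the Z-disc, and muscle LIM protein (Csrp3) is found there as part of the same strain-sensing machinery. Ankrd1 and Ankrd23 encode muscle ankyrin repeat proteins that bind the elastic part of titin and can also enter the nucleus, and Ankrd1 is a widely used marker of stressed heart muscle. Xirp1 and Xirp2 encode Xin proteins, which bind actin filaments and lie at the intercalated disc that joins heart muscle cells. Calcineurin is a calcium-activated phosphatase that sends NFAT transcription factors to the nucleus during hypertrophy. Rcan1 encodes a regulator that binds calcineurin, and its short isoform is itself induced by NFAT. Abra, also called STARS, is an actin-binding protein of striated muscle that promotes transcription by the serum response factor SRF.

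Promoter windows were in the RefSeq table (build GRCm38.p6) for 5 of the 8 genes, in 8 windows. The 250 bases before the transcription start are shown for Rcan1 and Xirp2, which had the largest increases in Model hearts among the 8 genes. For Rcan1 the window is that of the downstream of its 2 starts, which serves the short isoform (chr16:92400079-92400328, minus strand). For Xirp2 it is its single window (chr2:67445752-67446001, plus strand). Capitals mark matches on either strand to the NFAT core GGAAA or its complement in Rcan1, and to the MEF2 site in Xirp2.
Rcan1: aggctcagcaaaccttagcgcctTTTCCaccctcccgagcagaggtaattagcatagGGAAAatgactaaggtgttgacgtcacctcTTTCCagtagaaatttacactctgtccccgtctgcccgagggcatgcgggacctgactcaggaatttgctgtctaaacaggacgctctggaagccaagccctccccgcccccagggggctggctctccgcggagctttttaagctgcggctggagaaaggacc
Xirp2: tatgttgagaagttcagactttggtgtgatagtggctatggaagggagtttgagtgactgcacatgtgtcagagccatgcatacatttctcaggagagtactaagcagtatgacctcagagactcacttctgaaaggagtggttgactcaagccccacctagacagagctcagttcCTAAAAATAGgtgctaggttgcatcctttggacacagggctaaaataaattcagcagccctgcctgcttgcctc
The Rcan1 window held 3 GGAAA matches, at 227, 193 and 163 bases before the start, and the window of its upstream start held 0. At least 1 such match occurred in 55.6% of the 32851 promoter windows of the table, and 3 or more in 6.39%. The MEF2 match of Xirp2 began 74 bases before the start, and 2.92% of windows held such a match. The TEAD core CATTCC was matched at 2 places in the Ankrd1 window, on the complementary strand, at 1 place in a window of Ankrd23, and in 12.6% of all windows. The whole Ankrd1 window, and the Ankrd23 window without this match, lie inside exons that GENCODE M21 annotates for these genes. GGAAA was also matched once in a window of Csrp3 and at 2 places in each of the 2 windows of Ankrd23, genes that did not rise in Model hearts. No window of the 5 genes held a CArG box, the SRF site, which 1.47% of all windows held. The deposited values are per gene and do not separate the starts of Rcan1.

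Libraries held 13085370 to 16698987 reads assigned to genes. Values are FPKM (reads per kilobase of gene, set against a divisor per library) divided by a further factor per library, called scaled FPKM. The divisor in the deposited FPKM was not the number of assigned reads. Relative to that number it was 0.8276 to 0.942 in Sham and 1.0491 to 1.1192 in Model libraries. It was 0.9382 to 1.1642 in LQ-40 and 0.963 to 1.06 in SQ-3 libraries. The divisor was thus relatively lower in every Sham than in every Model library, and the reason was not tested. Because FPKM is per length, levels of different genes can be compared. Scores on the first principal component (53.4% of the variance) ran from -20.6 for LQ-40 1 to 34.3 for LQ-40 3, from 0.23 to 17.7 in SQ-3, from 26.3 to 36.2 in Model and from -52.5 to -43.7 in Sham libraries, so LQ-40 1 stood nearest to Sham and LQ-40 3 among the Model libraries. All 12 cardiomyocyte marker genes were present, and their summed level was 9319 to 19188 scaled FPKM in LQ-40, 14205 to 18575 in SQ-3, 11254 to 13259 in Model and 23455 to 25579 in Sham hearts. Summed markers of fibroblasts (8 genes) were 1118 to 4036 in LQ-40, 1781 to 2333 in SQ-3, 3317 to 3637 in Model and 471 to 618 in Sham hearts. Several of the 8 genes are also active in skeletal muscle. The 10 skeletal muscle marker genes summed to 1.86 to 14.4 scaled FPKM in LQ-40, 1.60 to 6.49 in SQ-3, 1.86 to 20.1 in Model and 1.21 to 2.11 in Sham hearts, with Tnnc2 at 0 in every library and Myh2, Myh4, Actn3 and Myog below 1. Of the 2 that were tested, Pvalb rose in Model hearts (2.15 ± 1.46 scaled FPKM, against 0.025 ± 0.043 in Sham hearts, limma adjusted p = 0.0278) and Mylpf did not pass (2.84 ± 4.26 in Model against 0.83 ± 0.49 in Sham hearts, adjusted p = 0.628). The part of skeletal muscle RNA in the results was not tested. In pieces of heart, fewer cells of a type and less RNA per cell cannot be told apart.

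Levels differed widely between the genes in Sham hearts. Tcap was highest at 1907 ± 347 scaled FPKM (SD over 3 libraries), followed by Ankrd1 at 1229 ± 105 and Csrp3 at 458 ± 79.2. Xirp2 (43.0 ± 10.8), Xirp1 (32.1 ± 1.09) and Rcan1 (27.7 ± 3.71) came next, and the libraries of each neighbouring pair among these overlapped. Abra averaged 13.6 ± 2.43 and Ankrd23, the lowest, 7.96 ± 1.67. In Model hearts the order differed: Ankrd1 was highest at 1699 ± 548, and Csrp3 (242 ± 15.4) and Tcap (231 ± 72.4) overlapped, as did Xirp2 (102 ± 28.8) and Rcan1 (96.5 ± 20.2). Each value rested on 190 reads (the lowest library for Ankrd23) to 91451 reads (the highest for Ankrd1).

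**Figure D1:**
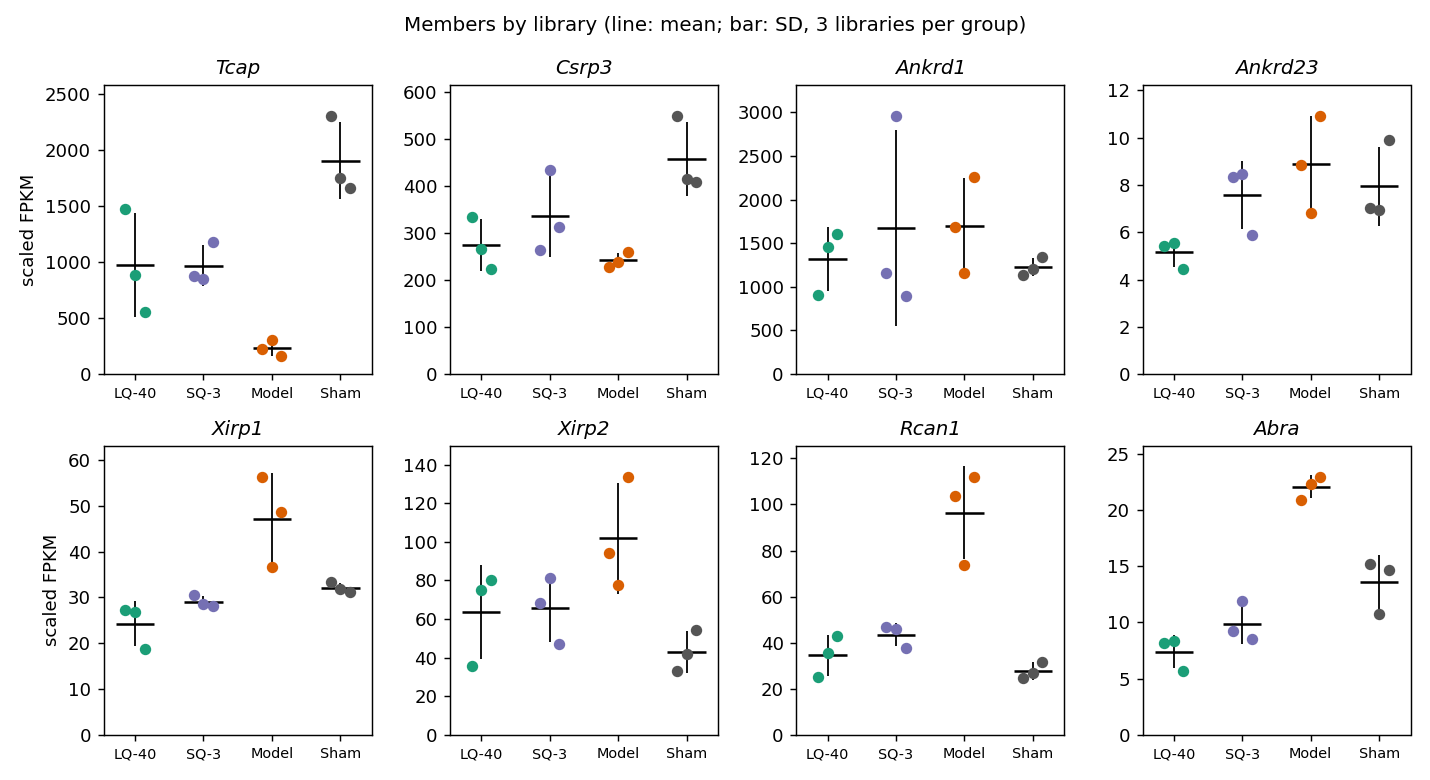
Scaled FPKM of the 8 genes (vertical axes from 0, a separate scale per gene) in LQ-40, SQ-3, Model and Sham hearts. Points are libraries, horizontal lines means and vertical bars SD (n = 3); Tcap is lowest and Rcan1 and Abra are highest in the 3 Model libraries.

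Model hearts were set against Sham hearts to describe the fibrosis model. Tcap fell 8.43-fold and Csrp3 1.87-fold, while Rcan1 rose 3.36-fold, Xirp2 2.32-fold, Abra 1.60-fold and Xirp1 1.44-fold (limma, adjusted p under 0.05). Ankrd1 and Ankrd23 did not pass the test. Thus 6 of 8 genes were called, where 38.9% of all tested genes were. The 4 that rose compare with 20.9% of all tested genes called higher, and the 2 that fell with 18% called lower. The 8 genes were chosen with earlier results of these data known. Shares of all tested genes, here and below, therefore cannot show that the set stands out. No Model library fell within the Sham range for these 6 genes, nor for 55.5% of all tested genes. The median log2 difference was 0.47 over the 8 genes and 0.03 over all tested genes.

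Among the Z-disc proteins, Tcap (chromosome 11, 98383811 to 98384953, mm10) had 225, 305 and 161 scaled FPKM in Model hearts, against 2305, 1751 and 1665 in Sham hearts. Every Model library was below every Sham library by a wide margin. The log2 difference was -3.08 (SE 0.35, 95% interval -3.84 to -2.31, limma adjusted p = 0.000319). Csrp3 (chromosome 7, 48830398 to 48848033) had 229, 238 and 259 in Model hearts, against 549.8, 416 and 409 in Sham hearts. Its Model libraries lay close together, below the lowest Sham library (log2 -0.91, SE 0.22, limma adjusted p = 0.00938). Quantile normalization ended the Csrp3 call (adjusted p = 0.0888, in a range of 0.00422 to 0.0888 over 20 alternatives).

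The ankyrin repeat genes did not separate Model from Sham hearts by scaled FPKM. Ankrd1 (chromosome 19, 36111965 to 36119844) had 1686, 1158 and 2253 scaled FPKM in Model hearts, against 1135, 1209 and 1343 in Sham hearts. Its Model libraries were 1.95-fold apart and its Sham libraries 1.18-fold, and the groups overlapped (log2 difference 0.42, 95% interval -0.51 to 1.35, limma adjusted p = 0.452). Ankrd23 (chromosome 1, 36530188 to 36536883) had 8.86, 6.82 and 10.9 in Model hearts, against 7.05, 6.94 and 9.88 in Sham hearts (log2 difference 0.13, 95% interval -0.28 to 0.54, adjusted p = 0.593). The level of Ankrd23 is uncertain, because 78.2% of its exon bases are shared with the annotated gene Gm42417, which was listed at 0 in every library. Ankrd2, another gene of this family, was below 1 scaled FPKM in every library and was not tested.

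Both Xin genes rose in Model hearts. Xirp2 (chromosome 2, 67446002 to 67526614) had 94.1, 77.6 and 134 scaled FPKM in Model hearts, against 33.0, 41.7 and 54.4 in Sham hearts. All Model libraries lay above all Sham libraries (log2 1.22, SE 0.33, limma adjusted p = 0.0161). Xirp1 (chromosome 9, 120013755 to 120023598) had 56.3, 36.6 and 48.6 in Model hearts, against 33.3, 31.8 and 31.1 in Sham hearts. The lowest Model library, Model 2, was only just above the highest Sham library (log2 0.52, SE 0.17, adjusted p = 0.0333). The Xirp2 call was lost without Model 3 (adjusted p = 0.0622) or Sham 1 (0.0625), and the Xirp1 call without Model 1 (0.133), Model 3 (0.0905), Sham 1 (0.0661), Sham 2 (0.0763) or Sham 3 (0.0774), with FPKM as deposited (0.0527) and without a filter (0.0635). Over the 20 alternatives the limma adjusted p ranged from 0.00415 to 0.0625 for Xirp2 and from 0.0135 to 0.133 for Xirp1.

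The signalling genes rose as well. Rcan1 (chromosome 16, 92391953 to 92470867) had 104, 73.7 and 112 scaled FPKM in Model hearts, against 24.6, 26.8 and 31.8 in Sham hearts. Even the lowest Model library stood far above the highest Sham library (log2 1.75, SE 0.21, 95% interval 1.29 to 2.21, limma adjusted p = 0.000435). Abra (chromosome 15, 41864076 to 41869720) had 20.9, 22.3 and 23.0 in Model hearts, against 15.2, 10.8 and 14.7 in Sham hearts. Its Model libraries were tightly grouped above all Sham libraries (log2 0.68, SE 0.17, adjusted p = 0.0105). The calls of Tcap, Rcan1 and Abra held in each of the 20 alternatives. Antisense genes overlap Rcan1 and Xirp2, with 0 and 168 shared exon bases, and Xirp1 overlaps the macrophage gene Cx3cr1 on the same strand with 0 shared exon bases. The antisense genes stayed at or below 0.156 FPKM in every library. Cx3cr1 had 3.46 to 13.5 FPKM in Model and 2.36 to 3.41 in Sham libraries, and the 6 macrophage marker genes summed to 685 to 1005 scaled FPKM in Model and 297 to 464 in Sham hearts. Their part in the Xirp1 result was not tested.

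**Figure D2:**
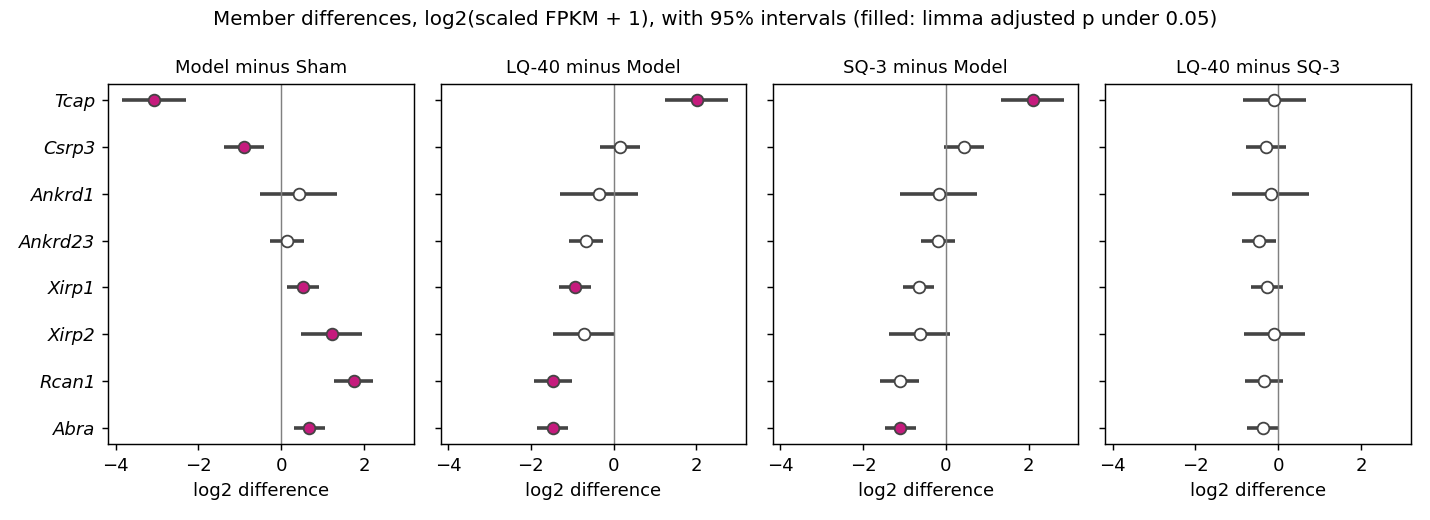
Log2 differences of the 8 genes on the log2(scaled FPKM + 1) scale (horizontal axes) with 95% intervals from limma, in Model minus Sham, LQ-40 minus Model, SQ-3 minus Model and LQ-40 minus SQ-3. Filled points passed an adjusted p of 0.05; Tcap is at -3.08 in Model minus Sham, and no point is filled in LQ-40 minus SQ-3.

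Since 7 of the 8 genes are best known from striated muscle, and 11 of the 12 cardiomyocyte marker genes fell in Model hearts (median log2 difference -1.11), each gene was also expressed relative to the mean log2 level of those 12 genes in the same library. On this relative log2 scale Tcap was -1.26 in Model and 0.79 in Sham hearts, a difference of -2.05. From Sham to Model hearts Tcap therefore fell by more than the mean of the cardiomyocyte genes did. For Csrp3 the groups overlapped on this scale (-1.14 in Model and -1.26 in Sham hearts, difference 0.12). Ankrd1 had relative levels of 1.02 to 2.02 in Model hearts against 0.01 to 0.38 in Sham hearts, without overlap on this scale. Ankrd23 had a relative difference of 1.18, Xirp1 of 1.57, Abra of 1.75, Xirp2 of 2.27 and Rcan1 of 2.81. The mean log2 level of the 12 genes itself differed by -1.03 between Model and Sham hearts. An unchanged gene would therefore stand higher in Model hearts on this scale by the same amount. The log2 differences in scaled FPKM were only 0.42 for Ankrd1 and 0.13 for Ankrd23, and neither was called. These ratios show unequal change within a library and were not tested. Rcan1 is the gene among the 8 that is not best known from striated muscle. The part of other cell types in its ratio was not tested. For none of the 8 genes is the ratio a level per heart muscle cell. The 12 cardiomyocyte genes do not count cells, and they fell unequally from Sham to Model hearts (Tnni3 2.60-fold, Slc8a1 1.43-fold). The part that the lower cardiomyocyte gene levels have in the differences of scaled FPKM was not tested. On the same scale Tcap was 0.60 in LQ-40 hearts and 0.44 in SQ-3 hearts, against -1.26 in Model hearts, and Abra -6.35 in LQ-40 hearts and -6.17 in SQ-3 hearts, against -4.59 in Model hearts. For Rcan1 these levels were -4.14 in LQ-40, -4.03 in SQ-3 and -2.49 in Model hearts, and for Xirp1 -4.63, -4.60 and -3.52 in the same groups. No LQ-40 or SQ-3 library reached the Model range for these 4 genes. For Xirp2, LQ-40 3 (-2.35) lay within the Model range (-2.88 to -2.05), as did LQ-40 libraries for Ankrd1 and Csrp3. For Ankrd23, SQ-3 libraries lay within it. The SQ-3 libraries of Xirp2 and the LQ-40 libraries of Ankrd23 stayed outside it. Shares of all tested genes without overlap on this scale were not computed.

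**Figure D3:**
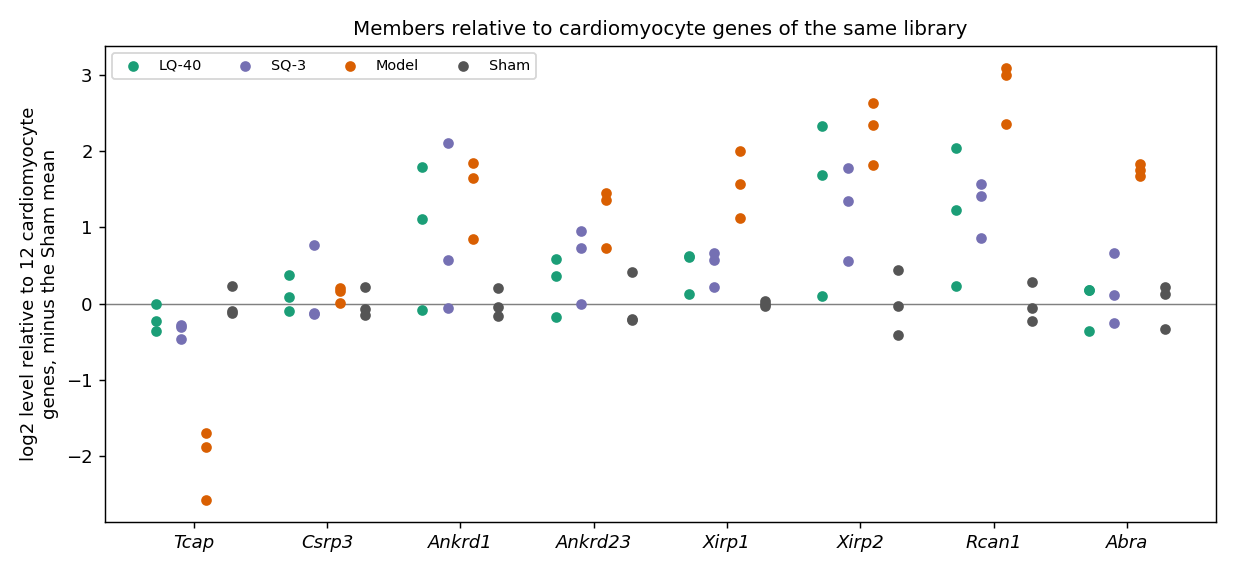
Log2 level of each gene relative to the mean log2 level of 12 cardiomyocyte genes of the same library, with the Sham mean of each gene set to 0 (vertical axis, log2). Points are libraries of LQ-40, SQ-3, Model and Sham hearts; Tcap lies below 0 in all Model libraries, Csrp3 near 0, and the other 6 genes above 0.

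LQ-40 hearts were next compared with Model hearts. Tcap rose 4.02-fold, and Abra fell 2.77-fold, Rcan1 2.76-fold and Xirp1 1.90-fold. These were 4 of the 8 genes, where 0.669% of all tested genes (87 of 13000) were called, 0.185% higher and 0.485% lower. Because of how the 8 genes were chosen, this contrast cannot show that the set stands out. Counting Ankrd23, 5 of the 8 genes had no overlap between LQ-40 and Model libraries, as had 18.1% of all tested genes. This comparison, the one with Sham hearts and the one of SQ-3 share the Model libraries. The median log2 difference of the 8 genes was -0.69, and that of all tested genes was 0.01.

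Tcap had 1473, 887 and 557 scaled FPKM in LQ-40 hearts, against 225, 305 and 161 in Model hearts. The LQ-40 libraries were spread widely, with LQ-40 1 nearest to Sham, but all lay above every Model library (log2 2.01, SE 0.35, 95% interval 1.24 to 2.77, limma adjusted p = 0.0258). Abra, the actin-binding activator of SRF, had 8.16, 8.35 and 5.72 in LQ-40 hearts, against 20.9, 22.3 and 23.0 in Model hearts (log2 -1.47, SE 0.17, 95% interval -1.84 to -1.10, adjusted p = 0.00313). Rcan1 had 25.3, 35.4 and 43.0 in LQ-40 hearts, against 104, 73.7 and 112 in Model hearts (log2 -1.46, SE 0.21, adjusted p = 0.0102). Xirp1 had 27.3, 26.9 and 18.7 in LQ-40 hearts, against 56.3, 36.6 and 48.6 in Model hearts (log2 -0.93, SE 0.17, adjusted p = 0.0367). For none of these 4 genes did an LQ-40 library reach into the Model range.

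The Abra call held in every one of the 20 alternatives (limma adjusted p 0.00184 to 0.0453). The Rcan1 call was lost without Model 3 (0.061) and when just LQ-40 and Model were fitted (0.165), with a range of 0.00819 to 0.165. The Tcap call was lost in 8 alternatives, among them the replicate block (adjusted p = 0.0516) and fits without LQ-40 1 (0.064), LQ-40 2 (0.0921), SQ-3 1 (0.0512), Model 1 (0.106) or Model 3 (0.144), in a range of 0.0066 to 0.219. The Xirp1 call was the least stable of the 4: it was lost in 14 alternatives, including the replicate block (0.0582) and fits without any library except Model 2, in a range of 0.0222 to 0.263.

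The other 4 genes did not pass. Xirp2 had 35.5, 74.8 and 80.5 scaled FPKM in LQ-40 hearts, against 94.1, 77.6 and 134 in Model hearts (log2 -0.72, limma adjusted p = 0.426). Here LQ-40 1 was within the Sham range (33.0 to 54.4) and LQ-40 3 within the Model range. On the first principal component, too, LQ-40 1 was the LQ-40 library nearest to Sham and LQ-40 3 lay within the Model range. Ankrd23 had 5.44, 5.56 and 4.45 in LQ-40 hearts, all below the Model libraries (log2 -0.67, adjusted p = 0.157). Csrp3 had a mean of 274 ± 55.9 in LQ-40 against 242 ± 15.4 in Model hearts (log2 0.16, 95% interval -0.32 to 0.65), and Ankrd1 one of 1322 ± 367 in LQ-40 against 1699 ± 548 in Model hearts (log2 -0.35, 95% interval -1.28 to 0.58).

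SQ-3 hearts compared with Model hearts gave 2 calls among the 8 genes. Among all tested genes 0.346% (45 of 13000) were called, 0.0769% higher and 0.269% lower. The limit set by the choice of the 8 genes applies to this contrast too. Tcap rose 4.28-fold, with 872, 853 and 1178 scaled FPKM in SQ-3 hearts, against 225, 305 and 161 in Model hearts. The SQ-3 libraries were closer together than those of LQ-40, and the groups did not overlap (log2 2.10, SE 0.35, 95% interval 1.33 to 2.86, limma adjusted p = 0.0346). Abra fell 2.14-fold, with 9.28, 11.9 and 8.49 in SQ-3 hearts, against 20.9, 22.3 and 23.0 in Model hearts (log2 -1.10, SE 0.17, adjusted p = 0.0217). Rcan1 had 46.8, 45.8 and 37.8 in SQ-3 hearts, all below the Model libraries, and did not pass (log2 -1.12, SE 0.21, adjusted p = 0.0538). The same held for Xirp1 with 30.5, 28.6 and 28.1 (log2 -0.66, adjusted p = 0.158). With Csrp3, whose SQ-3 libraries all lay above the Model libraries (264, 435 and 314 against 229, 238 and 259, adjusted p = 0.377), 5 of the 8 genes had no overlap, as had 26.4% of all tested genes. The median log2 difference was -0.41 over the 8 genes and -0.01 over all tested genes.

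Both SQ-3 calls depended on single libraries. The Abra call was lost with the replicate block (limma adjusted p = 0.0592), without a filter (0.0501), and without SQ-3 1 (0.114), SQ-3 3 (0.133), Model 1 (0.0735), Model 2 (0.089) or Model 3 (0.12), in a range of 0.00947 to 0.133. The Tcap call was lost with the block (0.0582), without a filter (0.126) and without any single library other than LQ-40 1 or LQ-40 3, in a range of 0.0085 to 0.166. Rcan1 passed without LQ-40 1 (0.0207) or LQ-40 3 (0.0372) and with a mean of at least 5 FPKM (0.0428), in a range of 0.0207 to 0.247. Among the remaining genes Ankrd1 varied most: SQ-3 2 had 2957 scaled FPKM, above every other library of the 12, beside 1161 in SQ-3 1 and 892 in SQ-3 3.

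The 2 compounds were then compared with each other. None of the 8 genes differed between LQ-40 and SQ-3 hearts by limma, nor did any of the 13000 tested genes (0%); limma-voom on recovered reads also called 0. At an unadjusted p under 0.05 there were 2 of the 8 genes, Ankrd23 and Abra, and 394 of all tested genes. Ankrd23 had a mean of 5.15 ± 0.61 scaled FPKM in LQ-40 against 7.58 ± 1.45 in SQ-3 hearts (log2 -0.47, 95% interval -0.88 to -0.06). Abra had a mean of 7.41 ± 1.47 in LQ-40 against 9.88 ± 1.77 in SQ-3 hearts (log2 -0.38, 95% interval -0.75 to -0.0041). The LQ-40 libraries lay below all SQ-3 libraries for these genes and for Xirp1, 3 of the 8 genes, where 6.12% of all tested genes had no overlap. The mean of Tcap was 972 ± 464 in LQ-40 against 968 ± 182 in SQ-3 hearts (log2 -0.09), with an interval from -0.86 to 0.68 that allows a 1.81-fold difference one way and a 1.60-fold difference the other. That of Rcan1 was 34.6 ± 8.87 in LQ-40 against 43.4 ± 4.95 in SQ-3 hearts (log2 -0.35, 95% interval -0.81 to 0.12). A p that misses the threshold does not show that the compounds act alike, and whether their doses and treatment times were matched is not stated.

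Against Sham hearts, 2 genes were lower in LQ-40 hearts, Abra and Csrp3, where 15.8% of all tested genes were called and 5.93% were called lower. Abra was 1.73-fold lower, with 8.16, 8.35 and 5.72 scaled FPKM in LQ-40 hearts and 15.2, 10.8 and 14.7 in Sham hearts (log2 -0.79, SE 0.17, limma adjusted p = 0.0166). It therefore lay below the Sham level in LQ-40 hearts and above it in Model hearts. The Abra call was lost without LQ-40 3 (0.0586) or Sham 1 (0.0648) and when just LQ-40 and Sham were fitted (0.0809), with a range of 0.00718 to 0.0809. Csrp3 was 1.68-fold lower, with 334, 266 and 223 in LQ-40 hearts and 549.8, 416 and 409 in Sham hearts (log2 -0.74, SE 0.22, adjusted p = 0.0443), a call that held in 7 of 20 alternatives (range 0.0127 to 0.159) and was lost with the replicate block (0.0723) and without any single library other than LQ-40 1, SQ-3 1 or SQ-3 2. In SQ-3 hearts 0 of the 8 genes were called against Sham, where 6.68% of all tested genes were, 4.86% higher and 1.82% lower; limma-voom also called 0. An unadjusted p under 0.05 was found for 3 of the 8 genes and for 3642 of the 13000 tested genes (28%). The libraries had no overlap with Sham for 5 of the 8 genes in LQ-40 (33.2% of all tested genes) and for 3 in SQ-3 hearts (36.6%).

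Tcap stood between Model and Sham in both treated groups. It was lower than in Sham hearts by 1.07 on the log2 scale in LQ-40 (95% interval of the difference -1.83 to -0.30, limma adjusted p = 0.0577) and by 0.98 in SQ-3 hearts (-1.75 to -0.21, adjusted p = 0.11), without passing the test. Without LQ-40 1, whose Tcap was nearest to Sham, the value was 0.00683 for LQ-40 (range over alternatives 0.00683 to 0.209) and 0.0391 for SQ-3 (range 0.0391 to 0.266). Rcan1 was 1.22-fold higher in LQ-40 than in Sham hearts (adjusted p = 0.356) and 1.55-fold higher in SQ-3 than in Sham hearts (adjusted p = 0.0944).

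Ratios of related genes within a library showed how far the genes of a pair moved apart. The level of Csrp3 over that of Tcap was 0.31 ± 0.09 in LQ-40, 0.36 ± 0.13 in SQ-3, 1.14 ± 0.43 in Model and 0.24 ± 0.004 in Sham hearts (mean and SD of 3 libraries). In Sham hearts Tcap thus exceeded Csrp3 in a nearly fixed proportion, and in Model hearts the pair was near parity. Xirp2 over Xirp1 was 1.30, 2.78 and 4.30 in the LQ-40 libraries, and averaged 2.25 ± 0.58 in SQ-3, 2.18 ± 0.54 in Model and 1.35 ± 0.38 in Sham hearts. Of the 4 groups, LQ-40 had the widest spread in this ratio. Ankrd1 over Ankrd23 was 263 ± 96.6 in LQ-40, 213 ± 118 in SQ-3, 189 ± 18.3 in Model and 157 ± 19.5 in Sham hearts. This ratio rests on the uncertain level of Ankrd23, which shares most of its exon bases with Gm42417.

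Other genes of the same structures and pathways were counted from 4 lists. The lists were chosen with earlier results of these data known, so shares called cannot show that a list stands out. Of 29 tested Z-disc and linker genes, 3 rose and 14 fell in Model against Sham hearts (58.6% called, median log2 difference -0.59). Among all tested genes 38.9% were called, 20.9% higher and 18% lower. Pdlim3, an alpha-actinin binding LIM protein, rose 3.22-fold (13.8 ± 1.23 scaled FPKM in Model against 3.59 ± 0.43 in Sham hearts, limma adjusted p = 0.00403), and Parva, a partner of integrin-linked kinase, rose 1.65-fold (0.00395). Fhl2, a LIM protein bound to titin, fell 2.47-fold (468 ± 80.2 in Model and 1147 ± 85.1 in Sham hearts, 0.00848), Trim63, a muscle ubiquitin ligase, 2.01-fold (0.00897) and Ttn, titin itself, 1.74-fold (0.00702). Tcap, at 8.43-fold, was lower by more than any of the 14 Z-disc genes that fell. Synpo2l, an actin-binding Z-disc protein, averaged 64.0 ± 22.3 in Model and 34.2 ± 10.3 in Sham hearts (adjusted p = 0.07), and Des, desmin, 457 ± 101 in Model and 440.4 ± 67.8 in Sham hearts (adjusted p = 0.898).

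In the calcineurin and NFAT list 4 of 22 tested genes rose and 3 fell in Model hearts (31.8% called; median log2 difference 0.06), where 38.9% of all tested genes were called. The NFAT factor Nfatc4 rose 2.63-fold (4.75 ± 0.81 scaled FPKM in Model against 1.18 ± 0.27 in Sham hearts, limma adjusted p = 0.00122), Nfatc1 1.65-fold (0.00308) and Nfatc3 1.30-fold (0.00779). Rcan2, a relative of Rcan1, fell 1.75-fold (64.2 ± 5.16 in Model and 113 ± 9.83 in Sham hearts, 0.0153), the opposite direction to Rcan1. Ppp3cb, a catalytic subunit of calcineurin, fell 1.24-fold (0.0224) and Cmya5, which encodes the muscle protein myospryn, 2.05-fold (0.0252). Ppp3ca, another catalytic subunit, averaged 9.76 ± 0.80 in Model and 8.84 ± 0.34 in Sham hearts (adjusted p = 0.409).

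Of 13 tested genes of MEF2 and class IIa histone deacetylases 1 rose and 5 fell in Model hearts (46.2% called, median log2 difference -0.27). Among all tested genes 38.9% were called. The gene that rose was Prkd3, a kinase of these deacetylases (1.36-fold, limma adjusted p = 0.00833). Those that fell were led by the transcription factor Mef2c (1.35-fold, 0.00741) and the calcium-binding protein gene Hrc (2.74-fold, 0.00861).

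Of 15 tested genes of YAP, TAZ and TEAD, the pathway that drives Ankrd1 in many cells, 9 rose in Model hearts and 0 fell. The share called was 60%, where 38.9% of all tested genes were called, and the median log2 difference was 0.54. The count does not separate genes that promote the pathway from genes that oppose it, and pathway activity was not tested. The TEAD cofactor Vgll3 rose 3.60-fold (5.81 ± 1.02 scaled FPKM in Model against 0.90 ± 0.35 in Sham hearts, limma adjusted p = 0.000513), Nuak2, a kinase induced by YAP, 2.03-fold (0.00531) and the cofactor Vgll4 1.45-fold (0.00468). Yap1 averaged 12.6 ± 0.11 in Model and 12.05 ± 1.20 in Sham hearts (adjusted p = 0.587). In LQ-40 against Model and in SQ-3 against Model hearts, limma and limma-voom called 0 of the 79 genes tested in the 4 lists, where limma called 0.669% and 0.346% of all tested genes. At an unadjusted p under 0.05 there were 9 of the 79 (11.4%) in LQ-40 against Model hearts, where 12.1% of all tested genes were, and 7 (8.86%) in SQ-3 against Model hearts, where 14.2% of all tested genes were. The list medians in these comparisons lay between -0.23 and 0.22.

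**Figure D4:**
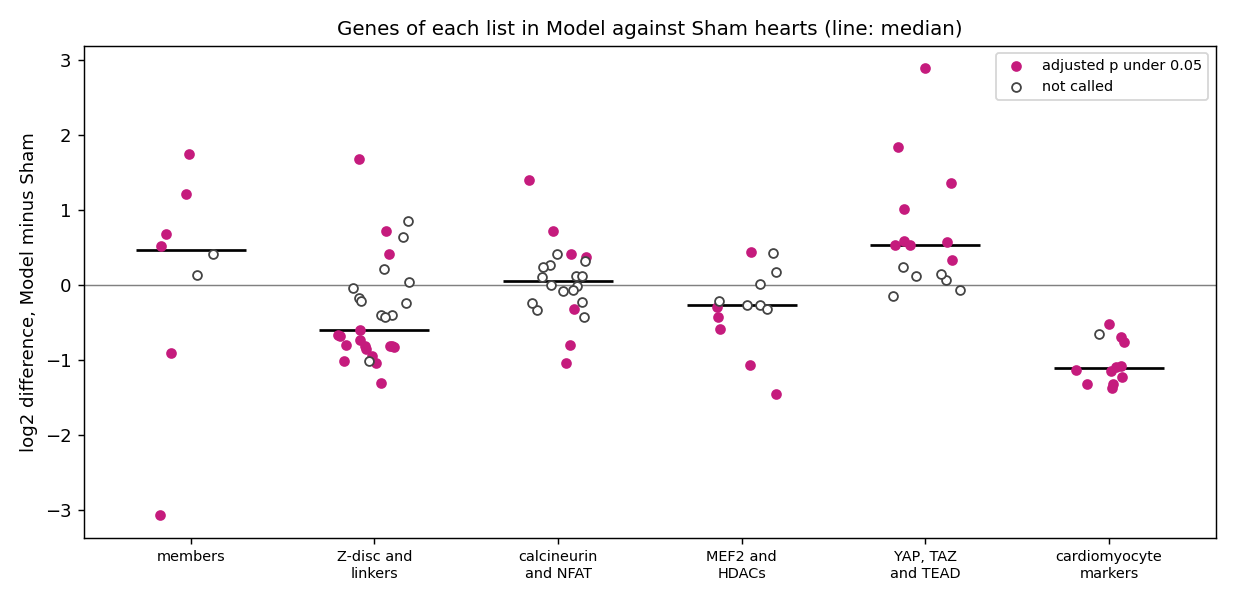
Log2 differences in Model minus Sham hearts (vertical axis) for the 8 genes, 4 pathway lists and 12 cardiomyocyte markers, 1 point per tested gene, filled where the limma adjusted p was under 0.05, with a line at the median. The 8 genes range from -3.08 to 1.75, and the cardiomyocyte markers have a median of -1.11.

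For each of the 8 genes the 3 genes with the most similar pattern were found among 11557 other named protein-coding genes, by the root-mean-square difference of centred log2 values over the 12 libraries. A distance is to be read against the SD of the gene's own log2 values. This SD was 1.23 for Tcap, 0.73 for Rcan1, 0.60 for Abra and for Xirp2, and 0.51 for Ankrd1. It was 0.42 for Csrp3, 0.40 for Xirp1 and 0.34 for Ankrd23. Nearest to Tcap were Ciart (0.44), Hlf (0.49) and Gpr22 (0.50). Ciart encodes a circadian repressor and Hlf a clock-controlled transcription factor, and Gpr22 is a receptor gene of the heart. Ciart averaged 5.13 ± 1.85 scaled FPKM in LQ-40, 5.26 ± 0.85 in SQ-3, 0.54 ± 0.47 in Model and 7.40 ± 2.53 in Sham hearts. Hlf averaged 7.92 ± 1.85 in LQ-40, 5.95 ± 1.15 in SQ-3, 1.14 ± 0.69 in Model and 7.96 ± 0.56 in Sham hearts. Both clock genes were thus lowest in Model hearts, as Tcap was, and the part of collection time in the Tcap difference was not tested.

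Nearest to Rcan1 were Adam19 (0.17), Foxs1 (0.17) and Nedd9 (0.18), a membrane protease, a forkhead transcription factor and a focal adhesion scaffold. Nedd9 averaged 8.18 ± 1.16 scaled FPKM in LQ-40, 10.5 ± 1.96 in SQ-3, 19.96 ± 3.13 in Model and 6.12 ± 0.75 in Sham hearts. Nearest to Abra were Vegfa (0.22), an angiogenic growth factor, Otud1 (0.23), a deubiquitinase, and Hspa5 (0.24), a chaperone of the endoplasmic reticulum. Hspa5 averaged 95.1 ± 11.2 in LQ-40, 96.8 ± 6.70 in SQ-3, 231 ± 7.14 in Model and 127 ± 9.96 in Sham hearts, and the means of both treated groups were below that of Sham for Hspa5 and for Abra. Xirp1 was nearest to the small heat shock protein gene Hspb1 (0.19) and again to Vegfa (0.19), then to Mafg (0.21).

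The remaining genes had other neighbours. Xirp2 was nearest to Endod1 (0.18), Syt11 (0.19) and Trim47 (0.20). Csrp3 was nearest to the proteasome subunit gene Psmb7 (0.10), the small heat shock protein gene Hspb2 (0.12) and the mitochondrial gene Higd1a (0.12). Ankrd1 was nearest to Hbegf (0.28), a growth factor of the EGF family, to Synpo2l (0.29) and to Mafk (0.29). Ankrd23 was nearest to the muscle genes Fbxo40 (0.16) and Alpk3 (0.17), with Fam220a (0.17) between them. These distances are descriptions over 12 libraries in 4 groups and carry no test.

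**Figure D5:**
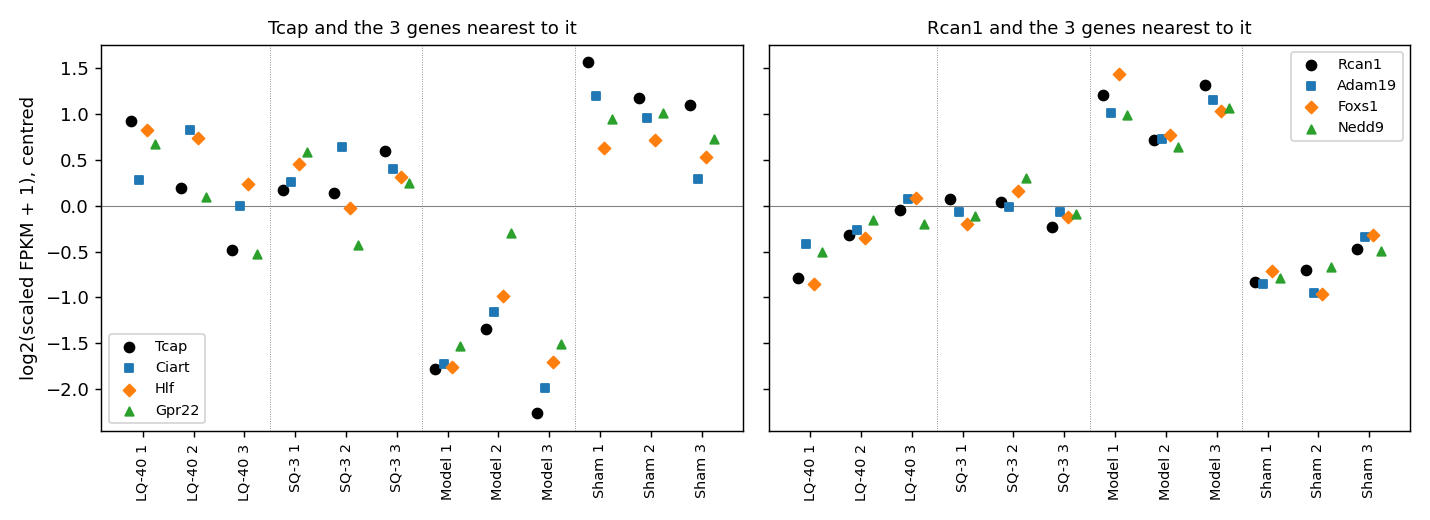
Centred log2(scaled FPKM + 1) values (vertical axis) of Tcap and Rcan1 and of the 3 genes nearest to each, in the 12 libraries from LQ-40 to Sham (horizontal axis, dotted lines between groups). Tcap, Ciart and Hlf are lowest in Model hearts, and Rcan1, Adam19, Foxs1 and Nedd9 are highest there.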

How the data were processed

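The labels' protocols describe trizol extraction, selection of poly-A RNA, and 2 kinds of library, one from NEB and one that keeps strand through dUTP; which one these samples had is not said. Tools named in the submitters' processing notes, with no role given, are fastp, HISAT2 2.0.5 and featureCounts 1.5.0-p3, with the build mm10. The strand setting is not given in the sources used here, and overlapping genes are therefore uncertain. The authors deposited FPKM values, 1 column per library. Multiplied by gene length, the values with lower read counts step in whole reads (100% of those above 0, tolerance 0.02 of a read). Values with higher read counts were not checked for this. All were rounded to whole reads, which gave the depths and, as an alternative, a limma-voom fit.

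Library factors were medians of ratios, taken from 10422 genes at 1 FPKM or more in every library. Tested were the 13000 genes at 1 FPKM or more in at least 3 libraries, on the scale log2(scaled FPKM + 1). limma 3.58.1 (R 4.3.3, trend option) was fitted to all 4 groups together, two-sided, with Benjamini-Hochberg adjustment over all tested genes and a threshold of 0.05. Every adjusted p comes from this fit unless another is named. Folds on this scale understate changes of low genes. The fit was also run on simulated data, but the outcome is not given here and no call rests on it.

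The 8 genes and the lists were chosen with earlier results of these data known. From each list, at most 3 called genes per direction (smallest p, Model against Sham) and at most 2 uncalled genes are named. Exon overlaps used GENCODE M21. The rat cell libraries were not used here, and 1 further list of genes is not reported here.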

Additional observations from a re-analysis of the deposited data

How the results depend on the processing

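Each result had 20 alternatives. They were unscaled FPKM, quantile normalization, a smaller pseudocount (0.1), no low-value filter, a stricter one (mean of 5 FPKM or more), fitting just the groups compared, limma-voom, the replicate block, and each of 12 libraries left out. Of the single-gene log2 differences under these, 866 kept their direction and side of the threshold, 69 lost a call, 10 gained one and 15 turned sign, all of them uncalled. For LQ-40 against Model (4 of the 8 genes and 87 of all genes called), no filter gave 2 and 48, the groups compared alone 1 and 14, and the replicate block 2 of the 8. For SQ-3 against Model (2 and 45), no filter gave 0 of the 8, and the replicate block 0 and 29. For LQ-40 against SQ-3, no filter gave 2 calls over all genes. For LQ-40 against Sham (2 and 2049), no filter gave 1 and 774, the groups alone 0 and 230, and the replicate block and quantile normalization 1 of the 8 each. For SQ-3 against Sham (0 and 868), no filter gave 262 genes and the groups alone 2 of the 8. For Model against Sham, the stricter filter gave 3291 of 5053 genes, with fewer genes tested. Unscaled FPKM split the Model against Sham calls into 2482 higher and 2604 lower, where scaled values gave 2718 and 2335. For the other changes the cause was not tested.

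With 1 library left out, calls among the 8 genes and among all genes ranged from 4 to 6 and 3288 to 5500 for Model against Sham, 1 to 4 and 31 to 155 for LQ-40 against Model, 0 to 3 and 12 to 142 for SQ-3 against Model, 0 to 0 and 0 to 1 for LQ-40 against SQ-3, 0 to 4 and 408 to 4372 for LQ-40 against Sham, and 0 to 2 and 227 to 1986 for SQ-3 against Sham. The highest count over all genes came without LQ-40 1 in every comparison but LQ-40 against Model (without LQ-40 3) and LQ-40 against SQ-3 (without SQ-3 1). Log2 differences that turned sign ranged from -0.013 to 0.29 for Ankrd23 in Model against Sham, -0.69 to 0.18 for Ankrd1 in SQ-3 against Model, -0.44 to 0.26 for Tcap, -0.53 to 0.34 for Ankrd1 and -0.31 to 0.28 for Xirp2 in LQ-40 against SQ-3, -0.092 to 0.32 for Ankrd1 in LQ-40 against Sham, and -0.27 to 0.60 for Ankrd1 and -0.14 to 0.088 for Ankrd23 in SQ-3 against Sham. Quantile normalization turned Ankrd1 in LQ-40 against SQ-3 to 0.052. Same-numbered libraries share only a number: their deviations from group means correlated at -0.268 to 0.219, and no comparison had all 3 correlations above 0.1.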
